A study of Mus musculus with 21 samples.

Results

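The core type I interferon-stimulated genes are 41 named mouse genes that cells switch on in response to type I interferon. They were taken by gene symbol from a list, and all 41 were found among the 54532 symbols that each of the deposited tables lists. All 41 had a mean normalized read count of at least 10 over the aging table, where 16086 genes did. Over the 5XFAD table, where 17025 genes did, 38 of the 41 passed that filter, and Oas1g, Oasl1 and Ifi44 were too low there to be tested.

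Type I interferons bind a receptor made of Ifnar1 and Ifnar2, whose kinases activate transcription factors. The complex ISGF3, which includes Stat2 and Irf9, then binds the interferon-stimulated response element in target promoters. The products sense foreign or misplaced nucleic acid, block viral translation and replication, and feed back on the pathway, and in microglia the same genes mark a recognised interferon-responsive state of aging and amyloid-bearing brain.

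RNA sequencing was done on primary microglia of mouse brain. The aging table held young and aged wild-type mice and young and aged mice labelled Trem1-/-, and the 5XFAD table held adult wild type, adult 5XFAD and adult 5XFAD labelled Trem1+/-, each with 3 libraries. Trem1 encodes a myeloid cell receptor that amplifies inflammatory signalling, and the title gives its genetic deletion as the subject. The 5XFAD model expresses mutant genes of familial Alzheimer's disease in neurons and accumulates amyloid plaques. Ages are given only as the words young, aged and adult, and the strain, the isolation of the cells, any sort gate and the kind of Trem1 allele are not given in the sources used here. Whether the 3 libraries of a group come from different mice is likewise unstated, and each p-value therefore measures only the spread between these libraries.

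The targeted gene went against its labels. Trem1 (chr17:48232768-48246924, GRCm38) was at 25.2, 7.65 and 8.73 normalized counts in young wild type and at 89.4, 99.8 and 89.5 in the young libraries labelled Trem1-/-. It was at 269, 188 and 237 in aged wild type and at 124, 124 and 244 in the aged libraries labelled Trem1-/-. Trem1 was therefore higher, not lower, in every young library labelled Trem1-/- (2.85 ± 0.45, adjusted p = 6.2e-04 in limma's test). Since Trem1 is present in those libraries, every direction below is between libraries labelled in this way. Depth was 8600878 to 19411434 reads a library for aging and 9264999 to 18698707 for 5XFAD, where a floor of 3 reads equals 2.06 to 4.51 and 2.26 to 4.36 normalized counts. The 10 microglial markers fixed for this work were present in every library, with summed levels of 314080.3 to 349897 in the aged libraries labelled Trem1-/- and 435301 to 490441 in young wild type. In bulk samples fewer cells of a type and less RNA per cell cannot be told apart.

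Many promoters of these genes carry the letters that ISGF3 reads, and the stretches below belong to members described in the results, both those that passed a test and those that did not, with 2 pairs of copies set side by side. RefSeq's promoter table (GRCm38.p6; 250 bases before to 50 after each start) had entries for 31 of the 41. The response element core, GAAA, any 2 bases and GAAA again, on either strand, occurred in 16 of those 31 (51.6%), against 1079 of all 27025 genes (3.99%). The sequences read 5′ to 3′ on the gene's strand, and capitals mark core matches, overlapping ones run together.
Isg15: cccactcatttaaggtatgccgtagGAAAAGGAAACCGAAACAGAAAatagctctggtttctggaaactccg
Ifit1: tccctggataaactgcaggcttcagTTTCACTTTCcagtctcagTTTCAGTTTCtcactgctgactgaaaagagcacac
Ifit3: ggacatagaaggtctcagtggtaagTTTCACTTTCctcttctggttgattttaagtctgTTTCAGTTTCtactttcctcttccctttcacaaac
Ifit3b: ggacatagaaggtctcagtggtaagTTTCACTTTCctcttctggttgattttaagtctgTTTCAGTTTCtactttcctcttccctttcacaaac
Oas1a: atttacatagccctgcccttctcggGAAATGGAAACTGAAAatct
Oas1g: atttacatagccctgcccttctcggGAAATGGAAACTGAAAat
Oas3: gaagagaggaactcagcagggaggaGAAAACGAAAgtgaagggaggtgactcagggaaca
Rsad2: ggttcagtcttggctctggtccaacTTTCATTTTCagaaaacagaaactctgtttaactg
Bst2: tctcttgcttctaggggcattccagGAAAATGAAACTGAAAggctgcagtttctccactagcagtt
Cxcl10: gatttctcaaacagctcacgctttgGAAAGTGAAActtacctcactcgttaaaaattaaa
Stat2: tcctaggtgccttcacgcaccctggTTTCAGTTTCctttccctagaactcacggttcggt
Isg15 (chr4:156200850-156200921 (minus strand)) has 3 overlapping matches, the first of them 78 bases before the start. Ifit1 (chr19:34640760-34640838 (plus strand)) has 2 separate ones. Ifit3 (chr19:34583348-34583441 (plus strand)) and Ifit3b (chr19:34607744-34607837 (plus strand)) are neighbouring copies whose stretches are identical over all 94 bases. Oas1a (chr5:120907526-120907570 (minus strand)) and Oas1g (chr5:120887614-120887656 (minus strand)) likewise share theirs, with 2 overlapping matches within 20 bases of the start. Oas3 (chr5:120777700-120777759 (minus strand)), Rsad2 (chr12:26456538-26456597 (minus strand)), Cxcl10 (chr5:92349068-92349127 (minus strand)) and Stat2 (chr10:128270251-128270310 (plus strand)) have 1 match each, and Bst2 (chr8:71537562-71537627 (minus strand)) has 2. A match describes letters only, and its absence from the window says nothing of the factor: Oasl2, Samd9l, Sp100 and Cmpk2, which rose in both contrasts against young wild type, have no core in theirs.

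Copies also limit the counting. Of the 50-base windows in their transcripts, 57.6% of Oas1a, 45.7% of Oas1g, 51.2% of Ifit3, 45% of Ifit3b and 47.0% of Phf11b occur in another gene too, so reads may be split between these copies and their counts are uncertain. Dtx3l and Parp9 overlap head to head on opposite strands of chromosome 16, and whether counting used strand is not given in the sources used here.

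The set spans a wide range of levels. Per kilobase of exon, Epsti1 had the highest mean over the aging table, at 524 normalized counts per kilobase, followed by Trim30a at 370.2, Dtx3l at 349.9 and Parp14 at 284. Oas2 (26.4), Cxcl10 (11.3), Oas1g (8.21) and Ifi44 (1.87) were near the other end. Oas1g, Ifi47, Oasl1, Cxcl10 and Ifi44 had a library with 1 read or none, and in the 5XFAD table Isg15, Oas1a and Oas3 did too. The median coefficient of variation within a group ran from 16.5% in aged wild type to 26.6% in young wild type, and in the 5XFAD table from 22.3% in 5XFAD to 32.8% in adult wild type.

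**Figure D1:**
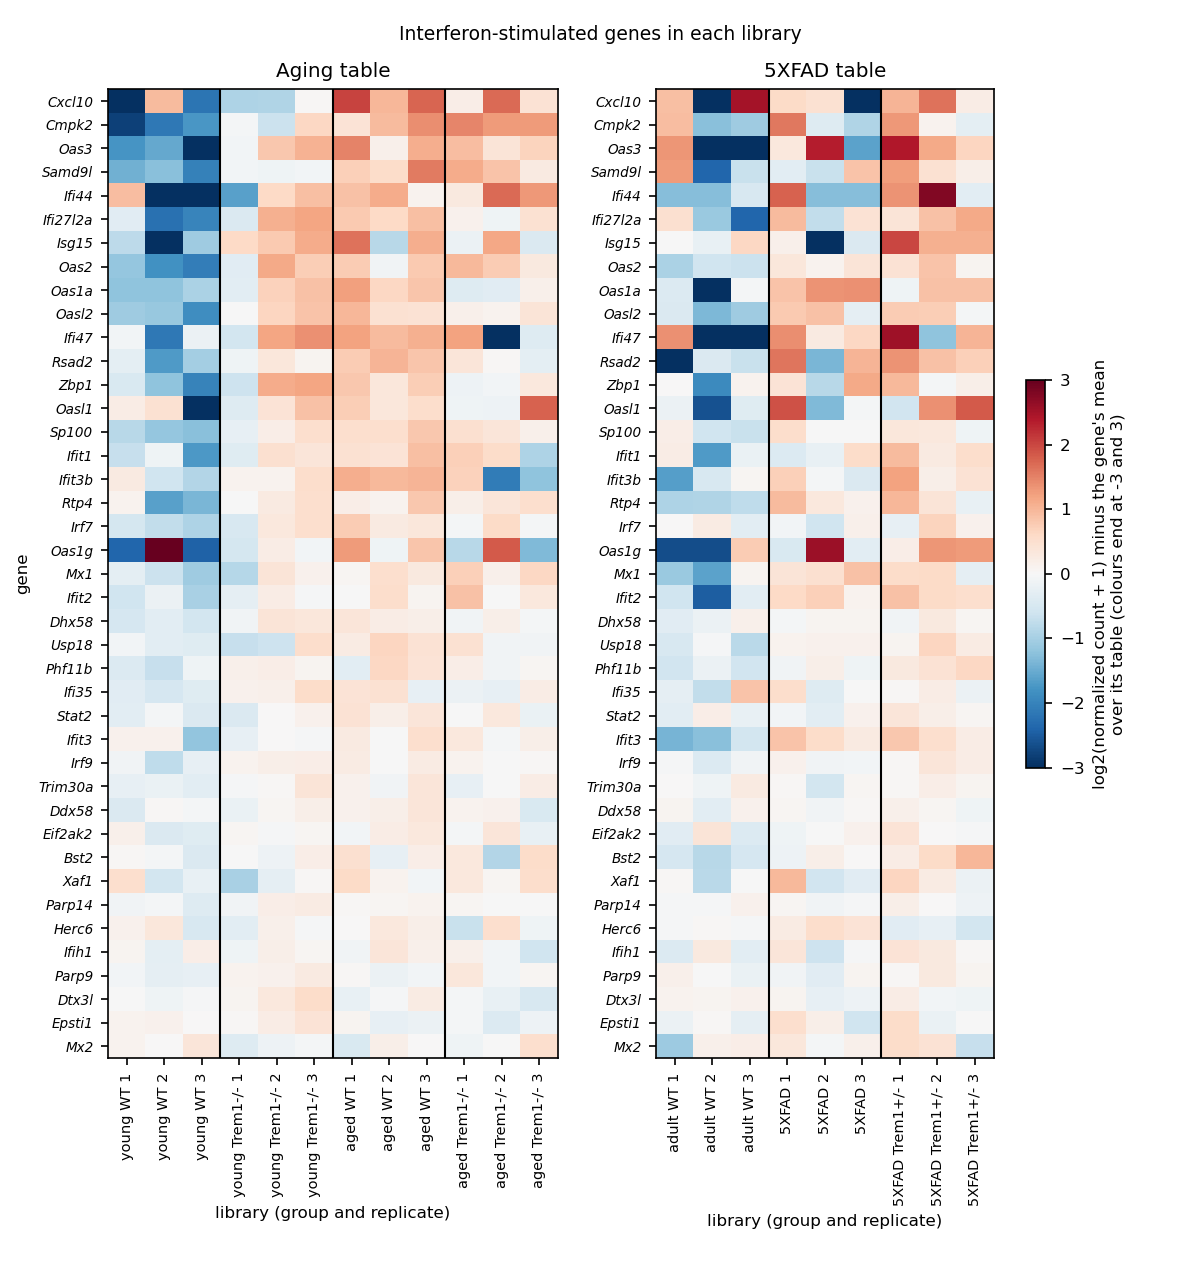
Each cell is 1 gene in 1 library, as log2(normalized count + 1) minus the gene's mean over its table; columns are libraries by group and rows are all 41 genes, including the 3 not tested in the 5XFAD table. Young wild type is lowest in most rows, and the median gene lies between -0.93 and -0.29 in its 3 libraries and between 0.31 and 0.43 in aged wild type.

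The first comparison asks how aging changed these genes in wild-type microglia. Interferon-stimulated genes had risen in the aged wild type: 16 of 41 rose and 0 fell, where 6.43% of all genes tested rose. The median of the 41 log2 differences was 0.96 against -0.01 for all genes tested, and 39 of 41 were above 0. In 25 of the 41 every aged library lay above every young one, which held for 15.1% of all genes. Each difference is given on the scale of log2(normalized count + 1) with its standard error (limma), and each p-value is adjusted over all genes of the table.

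The OAS family, enzymes whose short adenylate chains activate RNase L to degrade RNA, moved most widely. Of its 6 members 4 rose, Oas1a, Oas2, Oas3 and Oasl2, with a family median of 2.0. Oas3 (chr5:120753098-120777661) was at 52.2, 61.2 and 19.2 normalized counts in young and 511, 201 and 384 in aged wild type (3.07 ± 0.42, adjusted p = 8.8e-05). Every aged library stood above every young one. Oas2 was at 42.0, 26.2 and 21.8 in young and 161, 87.8 and 165 in aged wild type (2.16 ± 0.43, adjusted p = 0.0018). Oas1a was at 50.4, 50.3 and 61.1 and 279, 182 and 212 (2.02 ± 0.36, adjusted p = 6.6e-04). The groups did not overlap in either, and young libraries were close together for Oas1a. The OAS-like gene Oasl2 was at 155, 148 and 89.1 in young and 646, 450.5 and 442 in aged wild type (1.98 ± 0.26, adjusted p = 1.8e-05). Oasl1 (1.84 ± 1.02) and Oas1g (1.09 ± 1.34) did not pass: young wild type replicate 2 had 113 normalized counts of Oas1g where the other young libraries had about 1 read.

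Among the antiviral effectors, 4 of 9 rose: Cmpk2, Samd9l, Rsad2 and Rtp4. Cmpk2, a mitochondrial nucleotide kinase gene that lies beside Rsad2 on chromosome 12, was at 12.1, 19.7 and 26.2 in young and 122, 178 and 243 in aged wild type (3.17 ± 0.42, adjusted p = 2.3e-05). Its neighbour Rsad2, which encodes the antiviral enzyme viperin, was at 97.0, 36.1 and 58.5 and 203, 243 and 214 (1.88 ± 0.36, adjusted p = 0.0014). Both genes were higher in every aged library. Samd9l, which restricts poxviruses and slows cell growth, was at 179, 202 and 118 in young and 803, 715 and 1426 in aged wild type (2.52 ± 0.26, adjusted p = 2.3e-06), with aged replicate 3 the highest. Mx1, a dynamin-like GTPase that traps viral nucleoproteins, was higher without passing (0.96 ± 0.31, adjusted p = 0.060), and its relative Mx2 was at -0.24 ± 0.32. Bst2, the tetherin that holds budding virus at the membrane, was at 0.29 ± 0.32, Trim30a at 0.38 ± 0.15 and Ifi47 at 1.88 ± 0.95, none of which passed.

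Of the 11 genes of signalling and transcription 4 rose, Sp100, Irf7, Irf9 and Stat2, and all 11 were above 0. Sp100, a component of nuclear bodies, had the smallest adjusted p of the set: it was at 405, 322 and 303 in young and 1031, 1023 and 1271 in aged wild type (1.69 ± 0.18, adjusted p = 1.6e-06). Irf7, the transcription factor that amplifies interferon production, rose by 1.18 ± 0.27 (limma adjusted p = 0.0062). The ISGF3 subunits Irf9 (0.55 ± 0.15, adjusted p = 0.021) and Stat2 (0.60 ± 0.18, adjusted p = 0.045) rose less, by under 1 on the log2 scale. The ubiquitin-like modifier Isg15 had a larger difference that did not pass (2.28 ± 0.78, adjusted p = 0.074), and aged replicate 2 at 14.4 fell among the young libraries at 14.9, 2.19 and 12.2. Usp18, which removes Isg15 and damps the receptor, was at 0.71 ± 0.33. Herc6 (0.17 ± 0.26), Phf11b (0.64 ± 0.28), Parp9 (0.13 ± 0.15), Parp14 (0.25 ± 0.12) and Dtx3l (0.06 ± 0.14) did not pass.

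Of the 5 sensors of RNA and DNA 2 rose. Zbp1, which binds Z-form nucleic acid, rose by 1.85 ± 0.43 (limma adjusted p = 0.0088), and Dhx58, the LGP2 helicase, by 0.71 ± 0.22 (0.048). The RNA sensors Ddx58 (RIG-I; 0.37 ± 0.17) and Ifih1 (MDA5; 0.14 ± 0.20) and the RNA-activated kinase Eif2ak2 (PKR; 0.37 ± 0.17) did not pass. The IFIT family, which binds foreign RNA and blocks its translation, had 0 of 4 past the threshold and 3 at an unadjusted p under 0.05, all 4 being above 0: Ifit1 at 1.44 ± 0.48, Ifit2 at 0.78 ± 0.26, Ifit3 at 0.57 ± 0.30 and Ifit3b at 1.43 ± 0.57. Every aged library was above every young one for Ifit1, Ifit2 and Ifit3b. Among the other induced genes Ifi27l2a, a small membrane protein, was at 75.6, 19.7 and 23.6 in young and 167, 147 and 179.9 in aged wild type (2.29 ± 0.48, adjusted p = 0.0028). Xaf1 (0.28 ± 0.33), Ifi35 (0.61 ± 0.24), Ifi44 (2.44 ± 1.25) and Epsti1 (-0.20 ± 0.14) did not pass. Cxcl10, the chemokine that draws Cxcr3-bearing T cells, was low, at 0, 30.6 and 2.62 in young and 65.5, 31.5 and 53.8 in aged wild type (3.34 ± 1.02, adjusted p = 0.042).

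Of the 16 calls, 5 depended on single libraries. By limma, Dhx58 was lost without any 1 of the 6 libraries (adjusted p 0.071 to 0.15), Cxcl10 without any but young replicate 2 (0.051 to 0.20), Stat2 without young replicate 1 or 3 or aged replicate 1 or 3 (0.12 to 0.16), Irf9 without young replicate 2 or aged replicate 1 or 3 (0.084 to 0.17), and Rtp4 without young replicate 2 or 3 or aged replicate 3 (0.093 to 0.13). Without limma's trend and robust options 9 of the 16 passed, and Cxcl10, Ifi27l2a, Irf7, Irf9, Rtp4, Stat2 and Zbp1 did not. On the recovered reads Cxcl10 passed neither by edgeR (2.19, adjusted p = 0.26) nor by DESeq2 (2.20, adjusted p = 0.15), and its difference was also 2.20 by limma without young replicate 1, where it was at 0. Rtp4 (1.15, adjusted p = 0.069) and Stat2 (0.59, adjusted p = 0.055) did not pass by edgeR.

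Markers of blood myeloid cells moved in the same contrast. All 8 monocyte markers rose, with summed levels of 1450.1 to 2658 normalized counts in young and 10035 to 20659.6 in aged wild type, and 9 of 10 neutrophil markers rose, from 16691 to 24989.8 to 76386 to 135591. Of the 10 microglial markers 8 fell, by 0.28 to 0.81 on the log2 scale. Of the 4 choroid plexus and ependyma markers 1 rose, and their sums were 6028 to 14916 and 26969 to 44698. Of the 3 oligodendrocyte markers tested 1 rose, Mbp (0.88 ± 0.18). No monocyte, neutrophil or microglial marker was at 0 throughout any group. Markers of plasmacytoid dendritic cells, a strong source of type I interferon, had sums of 2963 to 3201 and 2382 to 2661. Of the 6 listed only 3 reached the mean of 10 needed for a test, so the sums rest almost wholly on these. They were Tcf4 (-0.25 ± 0.11), Ccr9 (-1.05 ± 0.96) and Cox6a2 (-1.55 ± 1.19). Of them 0 were past limma's threshold and 1 was at an unadjusted p under 0.05. Ly6d was at 0 in all young wild-type libraries, and the sums give no level of these cells. The part of these cells in the rise of the interferon genes was not tested.

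The second comparison asks what the label Trem1-/- changed in young microglia. Interferon-stimulated genes were higher in the young libraries labelled Trem1-/- than in young wild type: 9 of 41 rose and 0 fell, where 2.36% of all genes tested rose. The median was 0.65 against -0.01 for all genes, 37 of 41 were above 0, and in 17 the groups did not overlap with the labelled libraries higher (11.3% of all genes) and in 1 lower (9.05%). The young wild-type libraries are the same as in the first comparison, so the pair of comparisons shares its reference and the values stand side by side only.

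The OAS family again had 4 of 6 past the threshold. In the young libraries labelled Trem1-/- Oas3 was at 170.2, 317 and 373 (2.75 ± 0.42, adjusted p = 8.9e-04) and Oas2 at 74.9, 209 and 158 (2.19 ± 0.43, adjusted p = 0.0041). Oasl2 was at 325, 511 and 594 (1.86 ± 0.26, adjusted p = 1.5e-04) and Oas1a at 95.3, 191 and 220.2 (1.55 ± 0.36, adjusted p = 0.016). In all 4 genes replicate 1 was the lowest of the 3 labelled libraries, yet above every young wild-type library. Cmpk2 was at 86.8, 58.1 and 141 (2.21 ± 0.42, adjusted p = 0.0029). Samd9l was at 457, 443 and 460.3 (1.48 ± 0.26, adjusted p = 0.0021), with the smallest coefficient of variation of the set in these libraries. Sp100 was at 614, 841 and 1035 (1.25 ± 0.18, adjusted p = 2.9e-04). These 2 effectors and the nuclear body gene were higher in every labelled library. Ifi27l2a (2.13 ± 0.48, adjusted p = 0.012) and Zbp1 (1.79 ± 0.43, adjusted p = 0.027) also rose, but replicate 1 fell within the range of young wild type for both, at 71.5 and 99.6 normalized counts.

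The remaining 32 did not pass. Isg15 was at 40.9, 46.5 and 59.0 in the labelled libraries, above every young wild-type library (2.49 ± 0.78, adjusted p = 0.11). Irf9 was at 0.54 ± 0.15 (limma adjusted p = 0.051) and Irf7 at 0.85 ± 0.27 (0.11). Rsad2 was at 1.09 ± 0.36 and Rtp4 at 1.22 ± 0.36. The IFIT family had 0 of 4 past limma's threshold and 2 at an unadjusted p under 0.05, with a median of 0.60. Of the 4 members below 0, Mx2 was at -0.35 ± 0.32 with every labelled library lower, Xaf1 at -0.31 ± 0.33, Herc6 at -0.07 ± 0.26 and Usp18 at -0.00.

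Replicate 1 of the young libraries labelled Trem1-/- stood apart for this set: 9 of the 41 genes were above their table mean in it, against 33 and 35 in replicates 2 and 3. Without it 10 genes passed; without replicate 2, 5 passed. By limma, Oas2 was lost without replicate 2 of the labelled libraries (adjusted p = 0.056). Oas1a was lost without that library, labelled replicate 3 or wild-type replicate 2 (0.062 to 0.16), and Ifi27l2a (0.075 to 0.12) and Zbp1 (0.11 to 0.17) each without replicate 2 or 3 of either group. Beside this, 6 of 8 monocyte markers rose, with sums of 10702 to 20016 against 1450.1 to 2658, and replicate 1 was the lowest of the labelled libraries for them too. Of the neutrophil markers 4 of 10 rose (sums 35671 to 70124, with replicate 1 the highest), and of the microglial markers 1 of 10 fell. The sums of the choroid plexus and ependyma markers overlapped between these groups. The part of monocytes or neutrophils in the result was not tested.

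**Figure D2:**
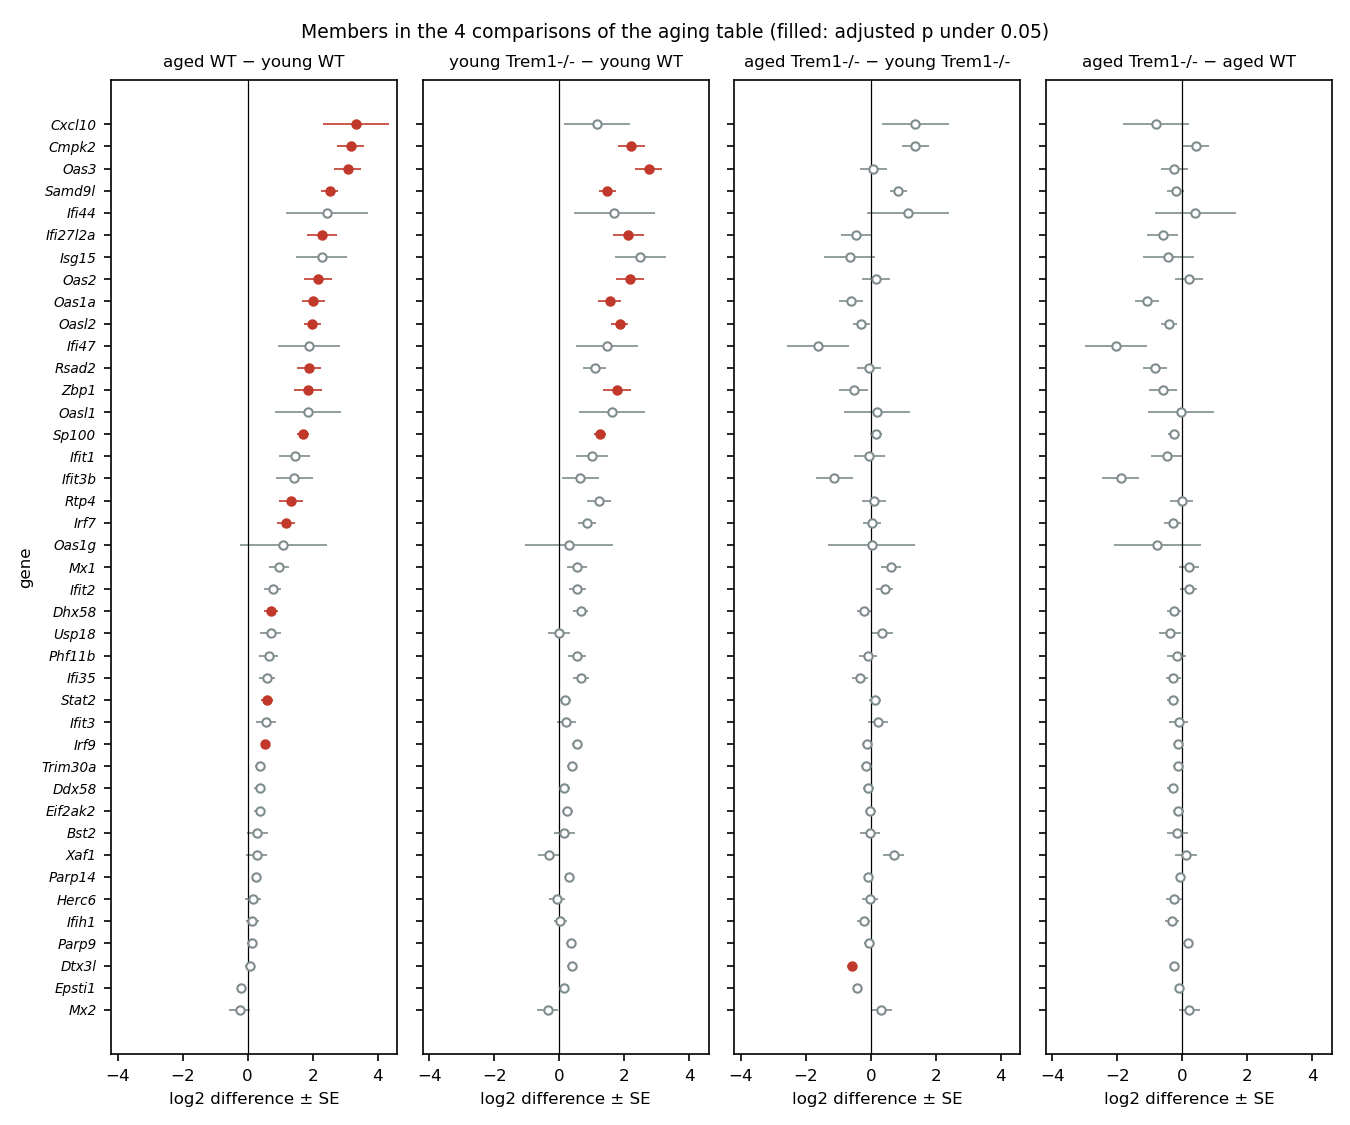
Points are log2 differences of the 41 genes with the standard error of the limma fit, 1 panel a comparison, and filled points have an adjusted p under 0.05. Filled points number 16, 9, 1 and 0 from left to right, and those of the panels against young wild type all lie above 0.

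In aged microglia the label made no difference that passed. Between aged libraries labelled Trem1-/- and aged wild type 0 of 41 genes were called by limma, as were 0% of all genes tested, and edgeR and DESeq2 on the recovered reads also called 0 of the 41. At an unadjusted p under 0.05 there were 4. The median was -0.25 against -0.02 for all genes, 33 of 41 were below 0, and in 8 every labelled library was lower (6.25% of all genes). The 5 genes with the smallest p were Ifit3b, Oas1a, Rsad2, Ifi47 and Dtx3l. Ifit3b was at 123, 112 and 116 in aged wild type and 93.4, 12.4 and 24.1 in the labelled libraries (-1.90 ± 0.57, adjusted p = 0.37). Oas1a was at 279, 182 and 212 and 89.6, 93.3 and 132 (-1.09 ± 0.36, adjusted p = 0.37). Rsad2 was at 203, 243 and 214 and 154, 122 and 97.8 (-0.84 ± 0.36, adjusted p = 0.45). In these 3 the groups did not overlap, yet after adjustment over 16086 genes none passed. Ifi47, an interferon-inducible GTPase, was at 65.3, 1.25 and 21.1 in the labelled libraries, a spread from 1 read to the level of aged wild type (-2.03 ± 0.95). Dtx3l, the ubiquitin ligase partner of Parp9, was at -0.25 ± 0.14. Monocyte markers had 0 of 8 past limma's threshold in this contrast, 0 also at an unadjusted p under 0.05, and sums of 11497 to 14041 in the labelled libraries, within the range of aged wild type. A p that misses the threshold does not show that the groups are alike.

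Within the libraries labelled Trem1-/- young and aged were compared in the same way. Of 41 genes 0 rose and 1 fell between young and aged (1.08% of all genes rose and 0.634% fell), with a median of -0.02 and 0.00 for all genes. The 1 that fell was Dtx3l, at 2100, 2456 and 2906 in young and 1905, 1674 and 1406 in aged libraries (-0.58 ± 0.14, adjusted p = 0.033). It was lost without young replicate 2 or 3 or aged replicate 2 or 3 (adjusted p 0.10 to 0.22), and by edgeR (adjusted p = 0.055) and without trend and robust (0.23). Cmpk2 (1.36 ± 0.42, adjusted p = 0.099) and Samd9l (0.84 ± 0.26, adjusted p = 0.11) were higher in every aged library without passing. Both passed by DESeq2 (adjusted p = 0.031 and 0.026) and when only these groups entered the fit (0.048 and 0.027), where 2 of 41 rose and 1 fell, and Samd9l also passed without aged replicate 3 (0.048). Epsti1 was lower in every aged library (-0.42 ± 0.14) and Xaf1, which promotes apoptosis, was higher in every one (0.70 ± 0.33). The 4 genes of the OAS family that rose with age in wild type were at -0.61 (Oas1a), 0.17 (Oas2), 0.08 (Oas3) and -0.29 (Oasl2) here. Monocyte markers had 0 of 8 past the threshold, also unadjusted. Of the neutrophil markers 1 of 10, Retnlg, rose, with all 10 above 0 and 7 at an unadjusted p under 0.05. Of the 10 microglial markers 3 fell, Fcrls (-0.57 ± 0.09), Olfml3 (-0.47 ± 0.08) and Csf1r (-0.43 ± 0.07), and of the 4 choroid plexus and ependyma markers Folr1 rose (2.13 ± 0.40, adjusted p = 0.0065), with all 4 at an unadjusted p under 0.05. The part of these cells in the result was not tested.

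The difference between these age effects was tested as an interaction. For 8 of 41 genes the age effect was lower in the libraries labelled Trem1-/- than in wild type, where 2.14% of all genes were lower and 0.398% higher. No member was higher by this test, the median was -0.95 against -0.02 for all genes, and 39 of 41 were below 0. The 8 were Oas3 (-3.00 ± 0.59, adjusted p = 0.0088), Ifi27l2a (-2.74 ± 0.67, adjusted p = 0.029), Oas1a (-2.63 ± 0.51, adjusted p = 0.0061), Zbp1 (-2.38 ± 0.61, adjusted p = 0.039), Oasl2 (-2.27 ± 0.36, adjusted p = 0.0013), Rsad2 (-1.93 ± 0.51, adjusted p = 0.043), Samd9l (-1.68 ± 0.36, adjusted p = 0.015) and Sp100 (-1.52 ± 0.26, adjusted p = 0.0019). Both sides of each difference can be read from the libraries. The aged libraries labelled Trem1-/- had Oas3 at 344, 238 and 287, overlapping their young counterparts, whereas all aged wild-type libraries were above young wild type. For Oasl2 they were at 364, 348 and 429 and for Sp100 at 1006, 941 and 805, again within the range of the young labelled libraries. Zbp1 was at 138, 146 and 192 and Ifi27l2a at 106, 88.4 and 132, and replicates 2 and 3 of the young labelled libraries were above these values for both. Samd9l was at 1051, 876 and 587, above all young labelled libraries, so its age effect was smaller there (0.84 against 2.52) but of the same sign.

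**Figure D3:**
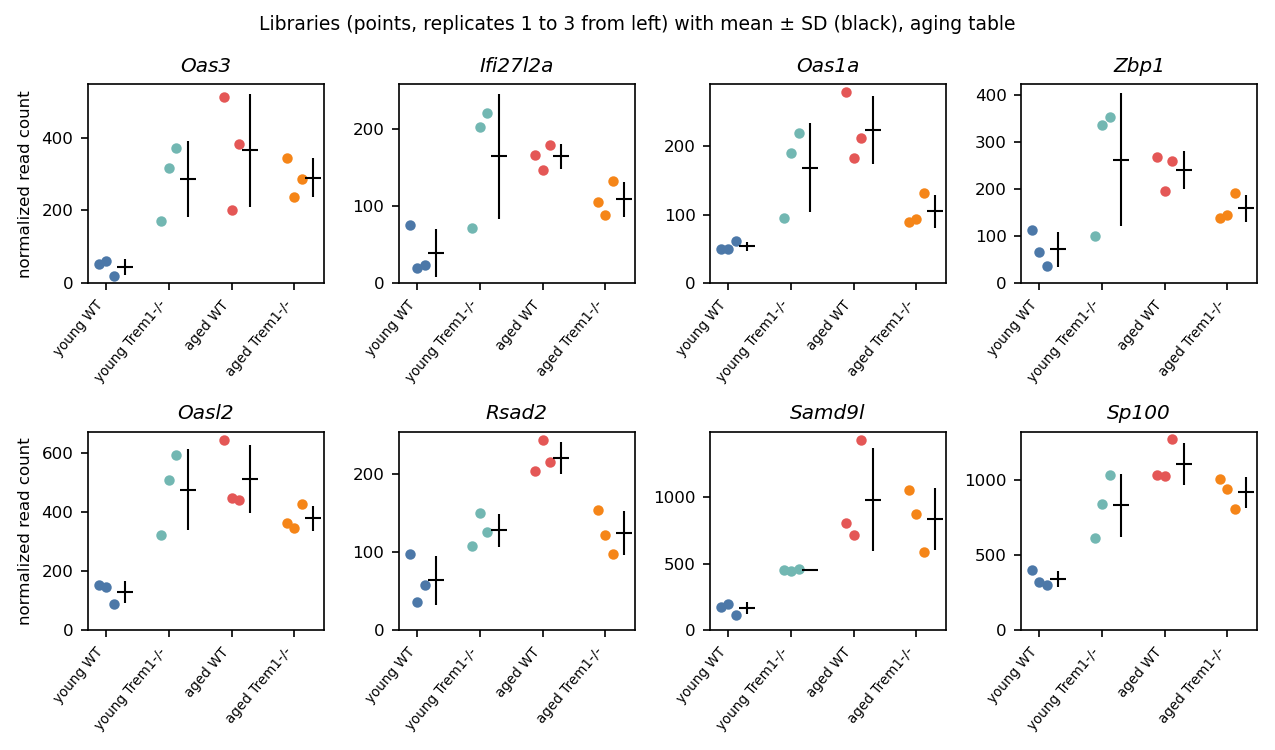
Each panel is 1 of the 8 genes with a lower age effect in the libraries labelled Trem1-/-; points are libraries (normalized read count, replicates 1 to 3 from left) and black marks are the mean ± SD of 3. In all 8 panels the young wild-type mean is the lowest of the 4, and Oasl2, for example, has means of 130 in young and 513 in aged wild type and of 477 and 380.4 in the labelled libraries.

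The aged libraries labelled Trem1-/- were set beside young wild type without a test. In 21 of the 41 genes all 3 aged libraries labelled Trem1-/- lay above all young wild-type ones, and in 1 below, where 12.9% of all genes were above and 10.2% below. Oas3, Cmpk2, Samd9l, Sp100 and Oasl2 were among them, at 289.8 ± 53.5, 232 ± 19.7, 838 ± 235, 917 ± 103 and 380.4 ± 42.5 (SD, n = 3) against 44.2 ± 22.1, 19.3 ± 7.04, 166 ± 43.6, 344 ± 54.0 and 130.5 ± 36.0 in young wild type. The interaction kept 5 genes, Oas1a, Oas3, Oasl2, Samd9l and Sp100, without any 1 of the 12 libraries. Exactly 5 passed without young wild-type replicate 2 or 3, young labelled replicate 2 or 3, aged wild-type replicate 1 or 3, or aged labelled replicate 2, and without trend and robust 0 passed.

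The age effect on monocyte markers was lower in the libraries labelled Trem1-/- for 5 of 8, among them Ly6c2 (-3.32 ± 0.49, adjusted p = 0.0017), and for 2 of 10 neutrophil markers. Summed monocyte markers were at 1450.1 to 2658 in young wild type and at 10702 to 20016, 10035 to 20659.6 and 11497 to 14041 in the other groups. The microglial gene Gpr34 was the only 1 of 10 microglial markers past the threshold, at 0.65 ± 0.17. The part of monocytes in the interaction was not tested.

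**Figure D4:**
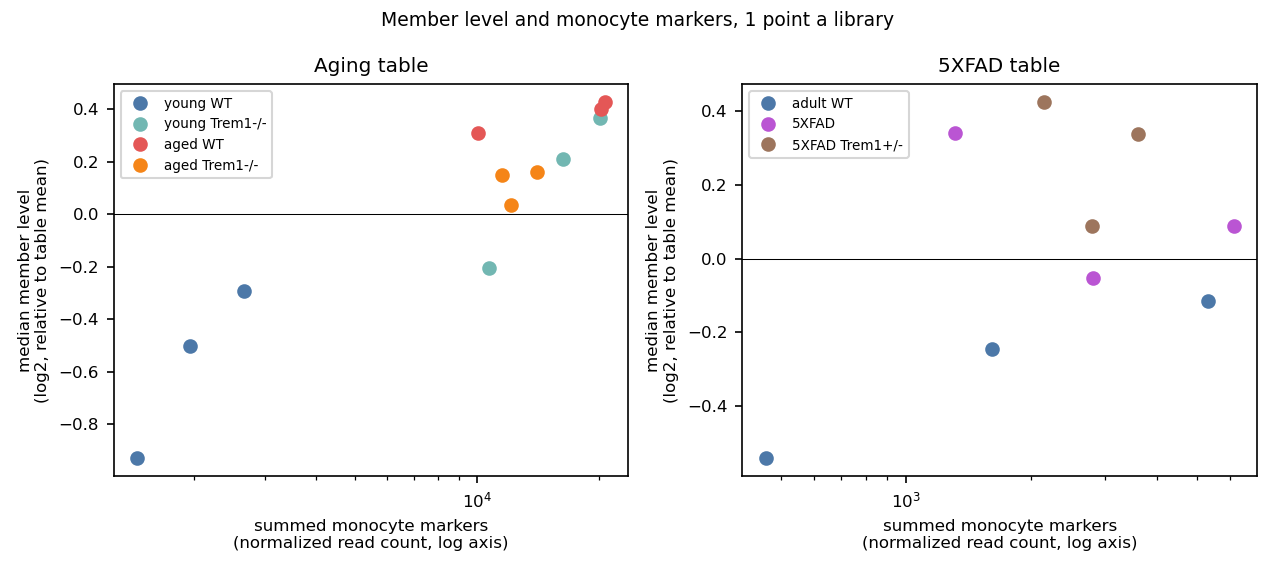
Each point is a library: the x axis is the summed normalized read count of 8 monocyte markers (log axis), and the y axis is the median over the tested genes of log2(normalized count + 1) relative to the gene's table mean. In the aging table young wild type is low on both axes, at 1450.1 to 2658 and at -0.93 to -0.29, and the other 9 libraries are at 10035 or more; in the 5XFAD table the groups overlap on the x axis.

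The rest of the interferon pathway moved less. Of 40 listed ligands, receptors and signalling genes 30 could be tested. With age in wild type 5 rose, where 6.43% of all genes tested did, and 3 fell. The share of all genes that fell is not given here, so the 3 are not set against it. Among the 5 were the kinase Ikbke (1.83 ± 0.53), the RIG-I ligase Trim25 (0.68 ± 0.20), the RNA editor Adar (0.37 ± 0.12) and the nucleotide hydrolase Samhd1 (0.80 ± 0.21). For Ikbke the aged and young libraries overlapped. The 3 that fell were Ifngr1 (-0.35 ± 0.09), Irf5 (-0.38 ± 0.10) and Tbk1 (-0.38 ± 0.12). In the young libraries labelled Trem1-/- 0 of 30 passed by limma, with 11 at an unadjusted p under 0.05. Between aged and young libraries labelled Trem1-/- 0 rose and 2 fell, the receptor Ifngr1 (-0.42 ± 0.09) and the adaptor Tmem173 (STING; -0.46 ± 0.10). Only Trim25 of the 30 passed the interaction (-1.08 ± 0.28), and 0 passed between the aged groups (6 at an unadjusted p under 0.05). In adult mice 0 passed for 5XFAD, for 5XFAD labelled Trem1+/- against wild type and between these groups, with 7, 4 and 1 at an unadjusted p under 0.05.

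Receptors were abundant and ligands nearly undetected. Ifnar1 had group means from 1667 to 2001 normalized counts over the 7 groups, and Ifnar2 from 2085 to 2872, and neither passed in any comparison. Ifnb1, the ligand interferon beta, was at 0 in 17 of 21 libraries and at most 4.40 normalized counts in the others. Ifna4 was at 0 in all 21, and Ifng had reads in 1 library, an aged one labelled Trem1-/- (15.0). A count of 0 allows up to 3 reads a library, so ligand RNA below that was not detectable.

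Neighbouring interferon-induced families were also counted, beside the 6.43% of all genes tested that rose with age in wild type. With age in wild type 3 of 5 IFITM genes rose, Ifitm2 (3.78 ± 0.35), Ifitm3 (2.77 ± 0.41) and Ifitm6 (2.90 ± 0.43), which encode membrane proteins that block viral entry. Of 11 p200 genes, DNA-binding proteins clustered on chromosome 1, 8 rose and Aim2 fell (-0.61 ± 0.17). Of 13 GTPases known best as interferon-gamma targets 2 rose, Gbp2 (1.45 ± 0.33) and Gbp7 (0.76 ± 0.18). In the young libraries labelled Trem1-/- 3 of 5 IFITM genes, 7 of 11 p200 genes and 2 of 13 GTPases rose, where 2.36% of all genes did. The interaction was lower for Ifitm2 and Ifitm3, for 3 p200 genes (Ifi204, Ifi207 and Mndal) and for Gbp3 and Gbp7, and higher for Ifitm10. Of all genes 2.14% were lower and 0.398% higher. In 5XFAD against adult wild type 2 of 9 p200 genes rose (1.62% of all genes), with a median of 1.77. In 5XFAD labelled Trem1+/- against wild type 1 of 9 rose (2.04% of all genes), with a median of 1.21. In both, 0 of 5 IFITM genes and 0 of 13 GTPases passed.

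In the 5XFAD table the first question is what the amyloid model changed. Of 38 interferon genes tested, 1, Ifit3, was past the threshold and higher in 5XFAD than in adult wild type, and 0 fell. Of all genes 1.62% rose, so 1 call among 38 is near that share. The median was 0.47 against 0.00 for all genes, 31 of 38 were above 0, and in 11 every 5XFAD library was higher (9.32% of all genes). Ifit3 was at 66.0, 72.7 and 118 in wild type and 317, 254 and 208 in 5XFAD (1.62 ± 0.34, adjusted p = 0.019). The 5XFAD libraries were all above the wild-type ones. The next 4 genes by p did not pass. Oasl2 was at 151, 79.7 and 97.2 and 354, 372 and 168 (1.40 ± 0.37, adjusted p = 0.061). Mx1 was at 68.2, 48.0 and 158 and 192, 208 and 272 (1.45 ± 0.43, adjusted p = 0.093). Both had every 5XFAD library above every wild-type one, with wild-type replicate 3 close below for Mx1. Ifit2 was at 196, 52.7 and 238 and 452, 487 and 316 (1.60 ± 0.45, adjusted p = 0.10). Rtp4, a chaperone of receptors that also binds viral RNA, was at 58.3, 59.8 and 66.3 and 219.8, 141 and 123 (1.33 ± 0.42, adjusted p = 0.13). Some genes that rose with age were not separated here: Samd9l was at 409, 31.6 and 105 in wild type and 134, 106 and 306 in 5XFAD, and Cmpk2 at 77.0, 16.4 and 18.9 and 123, 30.5 and 21.2, with wild-type replicate 1 high in both. Levels are not compared between the tables, since each was normalized alone.

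By limma, Ifit3 was lost without wild-type replicate 1 or 2 or 5XFAD replicate 1 (adjusted p 0.059 to 0.087), and the number of genes called was then 0. It was 3 without wild-type replicate 3 and 2 without 5XFAD replicate 3, 4 by DESeq2 and 5 with no filter on low values. Adult wild type replicate 1 carried more monocyte (461 to 5311 over the group, replicate 1 the highest) and neutrophil marker RNA (13892 to 53473) than the other 2, and 0 of 8 and 0 of 10 of these markers passed by limma, 0 also at an unadjusted p under 0.05. The choroid plexus and ependyma markers were at 2271 to 6558 in wild type and 14939 to 81523 in 5XFAD, with 0 of 4 past limma's threshold and 4 at an unadjusted p under 0.05. Of the 4 astrocyte markers Gfap rose (4.56 ± 0.74, adjusted p = 0.017), and all 4 were at an unadjusted p under 0.05. Aqp4 (1.78 ± 0.58) and Gja1 (2.48 ± 1.18) were above 0 too, and Slc1a3 (-0.33 ± 0.14) was below. Their sums, at 2899 to 3331 and 2502 to 3825, overlapped. Neuron and oligodendrocyte markers each had 0 of 3 past limma's threshold, 3 above 0 and 2 at an unadjusted p under 0.05. Border macrophage markers had 0 of 5 past it, 5 above 0 and 2 at an unadjusted p under 0.05. Their sums, at 115 to 308 in wild type and 381 to 601 in 5XFAD, did not overlap. Of the endothelial markers 0 of 4 passed and 3 were above 0, with Flt1 at 5.15 ± 1.10 (limma adjusted p = 0.073). Of the 10 microglial markers Fcrls rose (0.65 ± 0.13) and Siglech (-0.47 ± 0.09) and Cx3cr1 (-0.43 ± 0.08) fell, with 10 at an unadjusted p under 0.05. The part of these cells in the result was not tested.

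The next comparison asks what the label Trem1+/- changed in 5XFAD. Of 38 genes 0 were called by limma, as were 0% of all genes tested, with 0 also by edgeR and DESeq2 and 2 at an unadjusted p under 0.05. The median was 0.19 against 0.02 for all genes. Herc6, the main ligase for Isg15 in mice, was at 491, 595 and 543 in 5XFAD and 322, 344 and 278 in 5XFAD labelled Trem1+/- (-0.79 ± 0.21, adjusted p = 0.77). Isg15 itself was at 20.1, 0 and 13.1 and 74.2, 38.7 and 38.3 (2.88 ± 1.09, adjusted p = 0.90). In both the groups did not overlap, in opposite directions, and neither passed. Bst2 (0.58 ± 0.31), Phf11b (0.47 ± 0.30) and Trim30a (0.26 ± 0.17) were the next by p. Ifit3 was at 305, 248 and 202 in the labelled libraries, overlapping 5XFAD, and its difference was -0.05 ± 0.34. Trem1 itself was at 62.7, 0 and 30.1 in wild type, 13.7, 32.0 and 36.8 in 5XFAD and 25.1, 18.1 and 38.3 in 5XFAD labelled Trem1+/-, so the 3 groups overlap in the targeted gene. Microglial markers had 0 of 10 past limma's threshold, 10 above 0 and 5 at an unadjusted p under 0.05. Their sums did not overlap, at 338062 to 379931 in 5XFAD and 400632 to 450403 in the labelled libraries. The part of this in the values of the interferon genes was not tested.

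Against adult wild type, 5XFAD labelled Trem1+/- had 3 of 38 genes higher and 0 lower, where 2.04% of all genes rose. This contrast shares its wild-type libraries with that of 5XFAD, and its own values were a median of 0.86 against 0.02 for all genes, 35 of 38 above 0, and 13 with every labelled library higher (12.9% of all genes). The 3 were Ifit3 (1.57 ± 0.34, adjusted p = 0.017), Bst2 (1.21 ± 0.31, adjusted p = 0.044) and Oasl2 (1.42 ± 0.37, adjusted p = 0.047). Bst2 was at 138, 109 and 136 in wild type, 175, 221 and 198 in 5XFAD and 227, 292 and 387 in 5XFAD labelled Trem1+/-, so the 3 groups did not overlap. Oasl2 was at 344, 339 and 196 in the labelled libraries, with replicate 3 the lowest. Ifit2 (1.78 ± 0.45, adjusted p = 0.057) and Rtp4 (1.26 ± 0.42, adjusted p = 0.13) were higher in every labelled library without passing. By limma each of the 3 calls was lost in 5 of the 6 fits that leave out a library: Ifit3 in all but that without wild-type replicate 3 (adjusted p 0.057 to 0.075), Bst2 in all but that without labelled replicate 1 (0.066 to 0.30) and Oasl2 in all but that without wild-type replicate 1 (0.07 to 0.19). The count was 0 without wild-type replicate 2 or labelled replicate 2 or 3, 1 without labelled replicate 1, 5 by DESeq2 and 0 without trend and robust. Choroid plexus and ependyma markers were at 18225 to 103072 in the labelled libraries, again with 0 of 4 past limma's threshold and 4 at an unadjusted p under 0.05, and Gfap again rose (3.90 ± 0.74, adjusted p = 0.024). Of the 10 microglial markers Fcrls (0.78 ± 0.13) and Olfml3 (0.47 ± 0.09) rose. Border macrophage markers had 0 of 5 past limma's threshold, 5 above 0 and 1 at an unadjusted p under 0.05. Their sums, at 385 to 414, lay above the wild-type ones at 115 to 308. Endothelial Flt1 was at 5.05 ± 1.10 (limma adjusted p = 0.064). The part of these cells in the result was not tested.

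**Figure D5:**
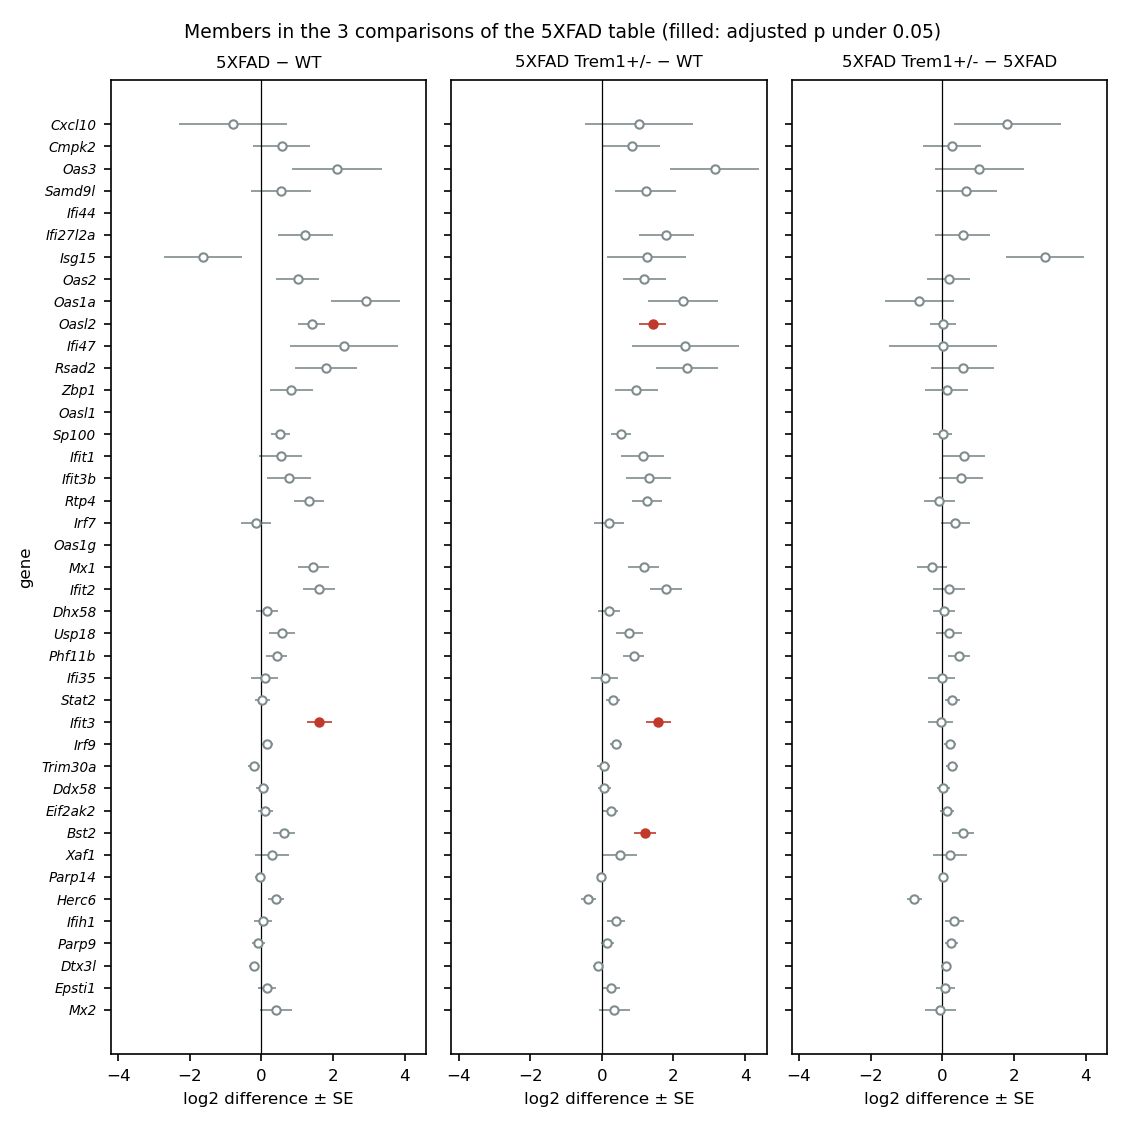
Points are log2 differences with the standard error of the limma fit for the 38 genes tested in the 5XFAD table, 1 panel a comparison, and filled points have an adjusted p under 0.05. Ifit3 is filled at 1.62 in the left panel, Ifit3, Bst2 and Oasl2 in the middle one and none in the right one; rows without a point are the 3 genes not tested.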

How the data were processed

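Per the submitters' processing notes, the tools were fastp, HISAT2 2.0.5, featureCounts 1.5.0-p3 and DESeq2 1.20.0, with GRCm38. The deposited per-library values are a signal, gene counts divided by a size factor by the authors, and at least 99.9956% of them came out as whole reads within 0.05 read. Each table was normalized and fitted alone. Genes with a mean of at least 10 were tested on log2(normalized count + 1) with limma 3.58.1 under R 4.3.3 (trend and robust), all groups of a table in 1 fit, with Benjamini-Hochberg adjustment over all genes and a threshold of 0.05. A fold on this scale is unsure for low genes and can be too small or too large. With age in wild type Cxcl10 was at 3.34 here, at 2.19 by edgeR and at 2.2 by DESeq2. Oas1g was at 1.095 although its mean was 16.14 in aged and 38.14 in young wild type. An exact permutation test of 3 against 3 libraries cannot go below 0.1 and was not used. edgeR 4.0.16 (TMM) and DESeq2 1.42.0 were run on the recovered reads as alternatives, beside other pseudocounts, filters and scalings, a replicate block and each library left out. The fit was tested on simulated data.

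The genes and the lists were chosen with earlier results of these data known. Genes given library by library are up to 8 with the largest differences among those called whose groups do not overlap, or, under 5 called, the 5 with the smallest p. Some others were given outside this rule, such as Sp100, Rsad2 and Isg15 with age in wild type and Samd9l and Cmpk2 in 5XFAD. For the interaction, overlap was not part of the rule. Gene positions come from GENCODE M21 (GRCm38), and promoters from RefSeq. The values of 1 gene of the pathway list are not reported here. No replicates were duplicates. Without molecular identifiers reads are not independent molecules, so the floors describe counting error alone.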

Additional observations from a re-analysis of the deposited data

Results flagged for a closer look

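The age effect differed between the genotype labels, by the interaction term of the limma fit, for 8 of the 41 genes. The age effect in libraries labelled Trem1-/- minus that in wild type was -3.00 for Oas3, -2.74 for Ifi27l2a, -2.63 for Oas1a, -2.38 for Zbp1, -2.27 for Oasl2, -1.93 for Rsad2, -1.68 for Samd9l and -1.52 for Sp100 on the log2 scale. The age effect within wild type was 3.07, 2.29, 2.02, 1.85, 1.98, 1.88, 2.52 and 1.69 in the same order. Rsad2, Zbp1 and Ifi27l2a were lost in 10, 9 and 7 of the 12 fits that leave out a library.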

How the results depend on the processing

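Over all alternatives no member called in a comparison changed its direction. Without trend and robust the numbers of genes called were 9 rather than 16 (aged against young wild type), 4 rather than 9 (young libraries labelled Trem1-/- against young wild type), 0 rather than 8 (interaction), 0 rather than 1 (aged against young labelled libraries), and 0 in both contrasts against adult wild type, rather than 1 for 5XFAD and 3 for 5XFAD labelled Trem1+/-. For aged against young labelled libraries the number was also 0 with an absolute log2 difference of at least 1, 0 by edgeR, and 3 (2 rose, 1 fell) by DESeq2 and with only the groups compared. For 5XFAD it was 4 by DESeq2, 5 with no filter on low values and 2 with a replicate block, and for 5XFAD labelled Trem1+/- 5 by DESeq2. Leaving out each library gave 11 to 16, 5 to 12, 0 to 1 and 5 to 10 genes in the aging contrasts (in the order age in wild type, label in young, age within the label and interaction), 0 to 3 for 5XFAD, 0 to 3 for 5XFAD labelled Trem1+/- against wild type, and 0 to 0 for each label within aged or 5XFAD libraries. Replicate numbers did not pair the libraries over each table as a whole: residual correlations of equal numbers had a median of 0.0119 (aging) and 0.0116 (5XFAD). Between 5XFAD and 5XFAD labelled Trem1+/-, however, equal numbers had 0.203, 0.0594 and 0.0788. All of these lay above those of unequal numbers, at -0.131 to 0.0572. Whether equal numbers in these groups share an origin was not tested. That contrast was fitted without pairing, and with a replicate block 0 of 38 genes were called there too. With the replicate block 15, 10, 1 and 7 genes were called in the aging contrasts in that order, and 4 for 5XFAD labelled Trem1+/- against wild type; a call lost under the block is not a weaker effect. Depth limits Oas1g, Oasl1, Ifi44, Ifi47 and Cxcl10 in both tables, and Isg15, Oas1a and Oas3 in the 5XFAD table, which have libraries at 1 read or none.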
